A study of Mus musculus with 10 samples.

Results

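The 7 genes described here encode proteins of the primary (azurophil) granule of neutrophils, or are expressed in the precursors that make it. They were taken by gene name from the deposited table of 54532 mouse genes as Elane, Mpo, Prtn3, Ctsg, Ms4a3, Gfi1 and Cebpe, and all 7 were found and measured. RNA sequencing was carried out on whole spleens of 5 DUSP6 KO mice, which carry the Dusp6tm1Jmol allele in every cell, and of 5 wild-type (WT) mice from the same supplier, which were not stated to be littermates. Both groups had KRN serum-induced arthritis (KSIA), a model in which serum of arthritic KRN x NOD F1 mice transfers joint inflammation. Every mouse received 100 µL of the pooled serum into the peritoneum on days 0 and 2, and the spleens were collected on day 9, at the peak of arthritis. The mice of the study were 8 to 12 weeks old and of both sexes, and the sex of each spleen's donor was not given in the sources used here. There was no group without arthritis serum, so every value below belongs to the arthritic state. DUSP6 is a phosphatase that removes activating phosphates from the ERK kinases, and the comparison asks how its loss changes expression in the arthritic spleen.

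Neutrophils are made from progenitors in the bone marrow and, in the mouse, also in the red pulp of the spleen. Primary granules are filled at the promyelocyte stage, when the genes for neutrophil elastase, proteinase 3, cathepsin G and myeloperoxidase are transcribed, and the secondary and tertiary granules follow as the cells mature. Transcription of the primary granule genes stops before the neutrophil is mature, so their mRNA marks dividing precursors and not the circulating cell.

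Each library held between 14990474 and 19822673 reads assigned to genes, as recovered from the steps of the deposited values. Expression was given as FPKM, a fragment count scaled by gene length and by the size of the library. Dusp6 itself had a mean of 19.4 ± 2.81 FPKM in WT and of 0.440 ± 0.117 FPKM in the knockout (SD, n = 5 each), without overlap. The genotype field calls the allele a knockdown while the growth protocol calls it a knockout, and the name of the latter is used here. Libraries are named by genotype and the number in their title, and WT 73 and DUSP6 KO 73 are different spleens.

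The 4 enzyme genes share a short purine-rich motif in the bases ahead of their starts, and the sequences are shown for that reason. On the GRCm38.p6 build, RefSeq gives a start for 6 of the 7 genes, and Cebpe has no entry. The stretches below run up to the last base before an annotated exon, within the 250 bases ahead of the RefSeq start. Capitals mark every match to GAGGAA, the core letters recognised by the transcription factor PU.1, or to TGTGGT, the letters recognised by Runx factors, on either strand.
Elane, chr10:79886062-79886246, plus strand: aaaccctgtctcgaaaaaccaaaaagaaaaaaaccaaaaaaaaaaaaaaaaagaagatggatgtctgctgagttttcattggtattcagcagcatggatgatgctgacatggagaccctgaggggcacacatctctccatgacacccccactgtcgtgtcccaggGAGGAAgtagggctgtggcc
Prtn3, chr10:79879417-79879613, plus strand: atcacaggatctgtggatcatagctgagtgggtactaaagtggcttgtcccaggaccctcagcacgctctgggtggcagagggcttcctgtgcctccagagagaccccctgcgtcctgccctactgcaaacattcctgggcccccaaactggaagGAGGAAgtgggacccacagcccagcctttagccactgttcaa
Ctsg, chr14:56102575-56102824, minus strand: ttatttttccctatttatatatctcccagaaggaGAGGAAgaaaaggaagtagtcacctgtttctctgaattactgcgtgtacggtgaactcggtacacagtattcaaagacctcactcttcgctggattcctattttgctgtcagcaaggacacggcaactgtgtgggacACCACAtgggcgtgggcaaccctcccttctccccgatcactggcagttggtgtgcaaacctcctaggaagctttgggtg
Mpo, chr11:87793534-87793580, plus strand: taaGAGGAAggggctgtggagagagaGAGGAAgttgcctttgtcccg

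GAGGAA or its complement was found in 4 of 6 windows, with 2 matches in Mpo and 1 each in Elane, Prtn3 and Ctsg. Of all 32851 RefSeq windows of 250 bases, 23.3% held it. The 2 windows without a match were those of Ms4a3 and Gfi1. TGTGGT was found in 1 of 6 windows, that of Ctsg, against 14.0% of all windows. The C/EBP-type letters TTNNGCAA and the Gfi1-type letters AAATCA were in 0 of 6 windows, against 9.6% and 12.4% of all windows. The Myb-type letters AACNG were in 5 of 6, against 74.2% of all windows. No GAGGAA match overlapped a match to another motif. These are matches of letters and not binding sites, and letters outside the windows were not searched.

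Elane lies on chromosome 10 at 79886247 to 79888215 on the plus strand, with 5 exons. Prtn3 spans 79874476 to 79883174 on the same strand and ends 3.07 kb before Elane begins, so that the genes of both proteases sit next to each other. Elane lies 19.4 Mb from Dusp6, which is on the same chromosome. Ctsg lies on chromosome 14 at 56099881 to 56102574 on the minus strand, next to the mast cell protease genes, and Cebpe lies 1.39 Mb away at 54710360 to 54712174 on the same strand. Mpo has 14 exons on chromosome 11 at 87793581 to 87804413, plus strand. Ms4a3 lies on chromosome 19 at 11629496 to 11640851 and Gfi1 on chromosome 5 at 107716657 to 107726036, both on the minus strand. Exons of Mpo, Prtn3 and Gfi1 overlap those of 1 other annotated gene each, namely Gm11505, Plppr3 and A430072P03Rik. Whether the counting used strand was not stated, so reads in those overlaps cannot be assigned with certainty.

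All 7 genes had lower mean log2 values in DUSP6 KO than in WT spleens. Fold changes on the scale of log2(FPKM + 0.1) ranged from -1.22 for Cebpe to -0.37 for Gfi1, with a median of -1.06. Over the 21296 genes tested the median was -0.0046, and 51% had a negative value. A log2 fold change of -1 or less was seen in 4 of 7 genes (Elane, Ctsg, Ms4a3 and Cebpe), against 3% of all tested genes. With limma, 3 of 7 (Elane, Ms4a3 and Cebpe) had an unadjusted p under 0.05, against 3.03% of all tested genes lower at that threshold. None of the 7 (0) passed 0.05 after Benjamini-Hochberg adjustment over all tested genes, where 0.0329% of genes, 7 in number, were called lower. With limma voom on the recovered reads, 3 of 7 were lower at unadjusted p under 0.05, against 3.09% of all tested genes, and 0 after adjustment. In 0 of 7 did all DUSP6 KO spleens lie below all WT spleens, against 0.563% of all tested genes. A bulk spleen cannot tell fewer precursor cells apart from less RNA of these genes in each cell.

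Elane encodes neutrophil elastase, a serine protease of the primary granule. Its level in the DUSP6 KO spleens 26, 21, 73, 01 and 03 was 29.5, 20.6, 42.1, 19.0 and 20.95 FPKM. In WT spleens 65, 67, 73, 77 and 83 it was 50.6, 21.2, 58.7, 173 and 48.6 FPKM. Of the WT spleens, 4 lay above every DUSP6 KO spleen, and WT 67 lay among the DUSP6 KO values. The WT mean was 70.4 ± 59.1 FPKM and the DUSP6 KO mean 26.4 ± 9.65 FPKM (SD, n = 5 each). The log2 fold change was -1.14 (SE 0.46, 95% CI -2.16 to -0.12), with an adjusted p of 0.819 by limma. An exact two-sided permutation test gave p = 0.0397, where 0.0079 is the smallest value that 5 against 5 spleens can give.

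Prtn3 encodes proteinase 3, the neighbour and close relative of elastase. In DUSP6 KO spleens 26, 21, 73, 01 and 03 it stood at 14.2, 13.9, 34.6, 11.7 and 14.8 FPKM. In WT spleens 65, 67, 73, 77 and 83 it stood at 24.4, 13.5, 36.5, 96.7 and 26.9 FPKM. DUSP6 KO 73 lay close to WT 73, while WT 67 lay among the other DUSP6 KO spleens, so that the groups overlapped at both ends. The log2 fold change was -0.94 (SE 0.47, 95% CI -1.98 to 0.10; adjusted p = 0.925 by limma), and the exact permutation p was 0.127.

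Ctsg encodes cathepsin G, the chymotrypsin-like protease of the same granule. The DUSP6 KO spleens 26, 21, 73, 01 and 03 had 5.45, 5.48, 16.6, 5.50 and 6.42 FPKM. The WT spleens 65, 67, 73, 77 and 83 had 10.98, 5.53, 20.8, 57.5 and 16.6 FPKM. Of the DUSP6 KO spleens, 4 lay within 1 FPKM of each other and of WT 67, and DUSP6 KO 73 stood above them with the WT spleens. The log2 fold change was -1.21 (SE 0.55, 95% CI -2.43 to 0.01; adjusted p = 0.891 by limma), and the exact permutation p was 0.0794.

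Mpo encodes myeloperoxidase, the haem enzyme that makes hypochlorous acid and gives the granule its green colour. Its level in DUSP6 KO spleens 26, 21, 73, 01 and 03 was 14.3, 9.37, 21.9, 8.52 and 10.5 FPKM. WT spleens 65, 67, 73, 77 and 83 had 22.1, 6.43, 28.0, 82.6 and 23.7 FPKM. WT 67 was the lowest of all 10 spleens, and the other 4 WT spleens lay above every DUSP6 KO spleen. WT spleens thus spanned a 12.9-fold range, the widest of the 7 genes. The log2 fold change was -0.97 (SE 0.55, 95% CI -2.19 to 0.25; adjusted p = 0.944 by limma), and the exact permutation p was 0.151.

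Ms4a3 encodes a membrane protein of the MS4A family whose expression marks granulocyte and monocyte progenitors. Its level in DUSP6 KO spleens 26, 21, 73, 01 and 03 was 2.76, 1.97, 4.24, 1.62 and 1.63 FPKM. In WT spleens 65, 67, 73, 77 and 83 it was 3.91, 2.53, 4.92, 13.4 and 4.03 FPKM. Of the DUSP6 KO spleens, 3 lay below every WT spleen, and DUSP6 KO 73 lay above 3 of the WT spleens. The log2 fold change was -1.06 (SE 0.41, 95% CI -1.97 to -0.14; adjusted p = 0.791 by limma), the smallest adjusted p of the 7 genes. The exact permutation p was 0.0556.

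Gfi1 and Cebpe encode transcription factors. GFI1 is a repressor needed for neutrophil development, which is also used in lymphocytes and stem cells, and C/EBP epsilon drives the step from primary to secondary granules. Cebpe measured 3.45, 1.70, 5.44, 1.26 and 2.04 FPKM in DUSP6 KO spleens 26, 21, 73, 01 and 03, and 4.81, 2.19, 6.03, 17.9 and 5.71 FPKM in WT spleens 65, 67, 73, 77 and 83. As with the enzymes, WT 77 was highest and WT 67 lay among the DUSP6 KO spleens. Its log2 fold change was -1.22 (SE 0.52, 95% CI -2.38 to -0.07; adjusted p = 0.843 by limma, exact permutation p = 0.0635).

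Gfi1 stood at 3.13, 2.07, 2.01, 1.26 and 2.21 FPKM in DUSP6 KO spleens 26, 21, 73, 01 and 03, and at 1.84, 2.68, 2.71, 4.28 and 2.43 FPKM in the WT spleens in the order above. The 2 groups were interleaved. WT 77 was again the highest, but the second was DUSP6 KO 26, and WT 65 lay below 4 of the DUSP6 KO spleens. Its log2 fold change was -0.37 (SE 0.25, 95% CI -0.93 to 0.19; adjusted p = 0.962 by limma, exact permutation p = 0.222).

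**Figure D1:**
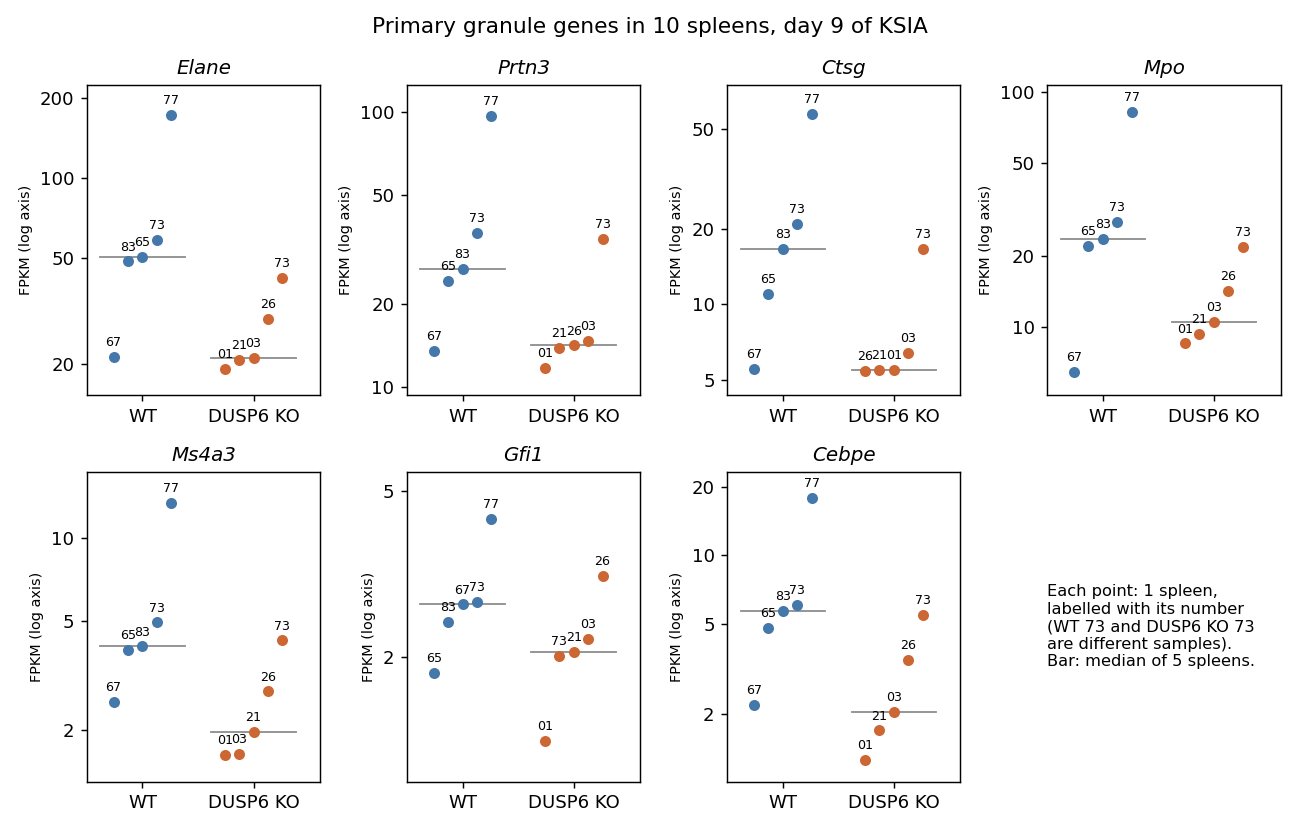
FPKM of the 7 primary granule genes on a log axis in WT and DUSP6 KO spleens, 1 point per spleen with its number and a bar at the median of 5. WT 77 is the highest point in every panel, at 173 FPKM for Elane and 4.28 FPKM for Gfi1, and the groups overlap in every panel.

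The order of the genes by level was the same in both groups as means, from Elane (48.4 FPKM over all 10 spleens) through Prtn3 (28.7), Mpo (22.8), Ctsg (15.1), Cebpe (5.05) and Ms4a3 (4.10) to Gfi1 (2.46 FPKM). FPKM divides by the length given for each gene, 984 bases for Elane and 1732 for Prtn3, so this order depends on those lengths. In reads, both orders of Prtn3 and Elane occurred in both genotypes. Prtn3 stood above Elane in DUSP6 KO 73 (877 against 607) and in WT 73 (1089 against 996). It stood below Elane in DUSP6 KO 26 (458 against 541) and in WT 77 (2785 against 2831). Reads in the exon overlaps of Mpo, Prtn3 and Gfi1 may also enter their levels. In FPKM, Elane was above Prtn3, Mpo above Ctsg, and Ctsg above Cebpe in 10 of 10 spleens each. Prtn3 was above Mpo in 9 of 10. Cebpe and Ms4a3 were not separated, with Cebpe higher in 7 of 10 spleens and a mean log2 ratio of 0.17 ± 0.31 (SD). Ms4a3 was above Gfi1 in 6 of 10 spleens, with a mean log2 ratio of 0.50 ± 0.68 (SD). The lowest read count behind any of these values was 34, for Cebpe, and the highest was 4704, for Mpo.

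The spleens differed widely within each genotype. Between the lowest and the highest WT spleen the ratio was 12.9-fold for Mpo, 10.4-fold for Ctsg, 8.17-fold for Elane, 8.15-fold for Cebpe, 7.14-fold for Prtn3, 5.31-fold for Ms4a3 and 2.33-fold for Gfi1. The SD of log2 values among WT spleens was 0.88 to 1.3 for the 6 genes other than Gfi1, against a median of 0.31 over all tested genes. Among DUSP6 KO spleens it was 0.48 to 0.81 for the same 6 genes, against a median of 0.34. For Gfi1 the SD was 0.43 in WT and 0.44 in DUSP6 KO.

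By the mean log2 level of the 7 genes, the spleens stood in the order WT 77 (5.19), WT 73 (3.82), WT 83 (3.56), DUSP6 KO 73 (3.53), WT 65 (3.35), DUSP6 KO 26 (2.87), DUSP6 KO 03 (2.50), WT 67 (2.49), DUSP6 KO 21 (2.42) and DUSP6 KO 01 (2.15). WT spleens took the first 3 places, and DUSP6 KO spleens took the last 2. WT 77 was highest for 7 of 7 genes. The group means were 2.69 ± 0.53 in DUSP6 KO and 3.68 ± 0.98 in WT (log2 scale, SD, n = 5 each). No spleen moved by more than 1 place when the sum of FPKM or the mean rank was used instead, or when any of the 7 genes was left out.

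**Figure D2:**
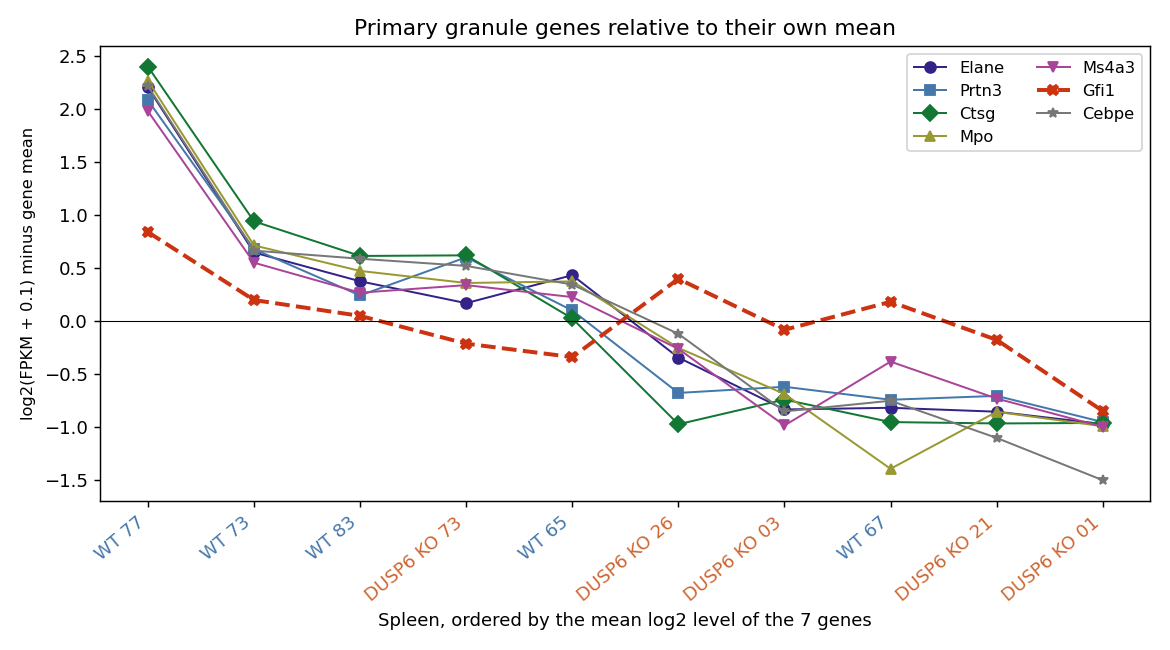
log2(FPKM + 0.1) of each gene minus its own mean over 10 spleens (vertical axis), with the spleens ordered by the mean level of the 7 genes and WT names in blue, DUSP6 KO names in orange. The lines of 6 genes run together from WT 77 down to DUSP6 KO 01, and Gfi1 (dashed) lies outside their range in all 10 spleens, on the other side of 0 from them at WT 67, WT 65, DUSP6 KO 26 and DUSP6 KO 73.

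Over the 10 spleens, the 15 pairs among Elane, Mpo, Prtn3, Ctsg, Ms4a3 and Cebpe had Pearson's r between 0.94 and 0.99 and Spearman's rho between 0.79 and 0.98. These are descriptions over 10 libraries that share the difference between genotypes and 1 spleen far above the others. After the mean of each genotype was subtracted, r was 0.91 to 0.99, and without WT 77 and DUSP6 KO 01, the 2 spleens farthest from the median, it was 0.84 to 0.98. The closest pair was Prtn3 and Ctsg, at 0.99. The 6 pairs with Gfi1 had r between 0.55 and 0.70, and between -0.23 and 0.01 without those 2 spleens. Their relation to the other genes therefore rested on WT 77 and DUSP6 KO 01.

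The proportions of the genes to each other were compared between the genotypes as log2 ratios for all 21 pairs. By the exact permutation test, 0 of 21 ratios had an unadjusted p under 0.05, and 0 after adjustment over the 21. Prtn3 to Ctsg had the lowest p, 0.0952 (adjusted 0.538), with a mean log2 ratio of 1.21 ± 0.15 in DUSP6 KO and 0.94 ± 0.27 in WT (SD, n = 5 each). The ratio of Elane to Mpo was between 1.92 and 2.24 in DUSP6 KO spleens and between 2.05 and 3.30 in WT spleens, so that it varied far less than either gene. A p above the threshold does not show that the proportions were equal.

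Among the 13415 genes that averaged 1 FPKM or more, those whose log2 values followed the mean of the 7 most closely over the 10 spleens were Chil3 (r = 0.98), Lcn2 (0.98), Fcnb (0.98), Ngp (0.98), Ltf (0.97), Cd177 (0.97), Cldn15 (0.97), Camp (0.96), Trem3 (0.95) and S100a9 (0.95). Of these 10, 6 belonged to the list of secondary and tertiary granule genes, among them Ltf, which encodes lactoferrin, and Camp, which encodes the cathelicidin peptide. Fcnb encodes ficolin B, a lectin made in granulocyte precursors. All 10 had lower means in DUSP6 KO spleens, which their likeness to the 7 genes fixes in part. By Spearman's rho 6 of the 10 stayed among the first 10, and without WT 77 it was 8. In all, 26 genes outside the 7 reached r of 0.9.

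For the 10 secondary and tertiary granule genes the median log2 fold change was -1.06, and -0.73 without WT 77. Of the 10, 7 were lower in DUSP6 KO at unadjusted p under 0.05 by limma, against 3.03% of all tested genes, with 0 after adjustment. Lcn2, which encodes the iron-scavenging lipocalin 2, averaged 59.6 ± 44.3 FPKM in WT against 23.6 ± 14.2 FPKM in knockout spleens (SD, n = 5 each; log2 fold change -1.25, adjusted p = 0.767 by limma). Ngp averaged 376 ± 290.1 against 155 ± 98.8 FPKM (SD, n = 5 each). The mean log2 level of the 7 primary granule genes lay 0.87 ± 0.12 below that of these 10 genes in DUSP6 KO and 0.91 ± 0.17 below it in WT (SD, n = 5 each), and the spleens kept nearly the same order in both lists (r = 0.99, n = 10). Of the 7 mature neutrophil genes, 4 (among them S100a8, S100a9 and Il1r2) were lower at unadjusted p under 0.05, against 3.03% of all tested genes. The median of the 7 was -0.76. Without WT 77 that median was -0.48. The mean level of the mature neutrophil genes had r = 0.86 with that of the 7 primary granule genes over 10 spleens, and 0.69 without WT 77 and DUSP6 KO 01. Over 10 spleens, r was 0.85 for the megakaryocyte genes, 0.82 for the basophil and mast cell genes and 0.33 for the monocyte genes.

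**Figure D3:**
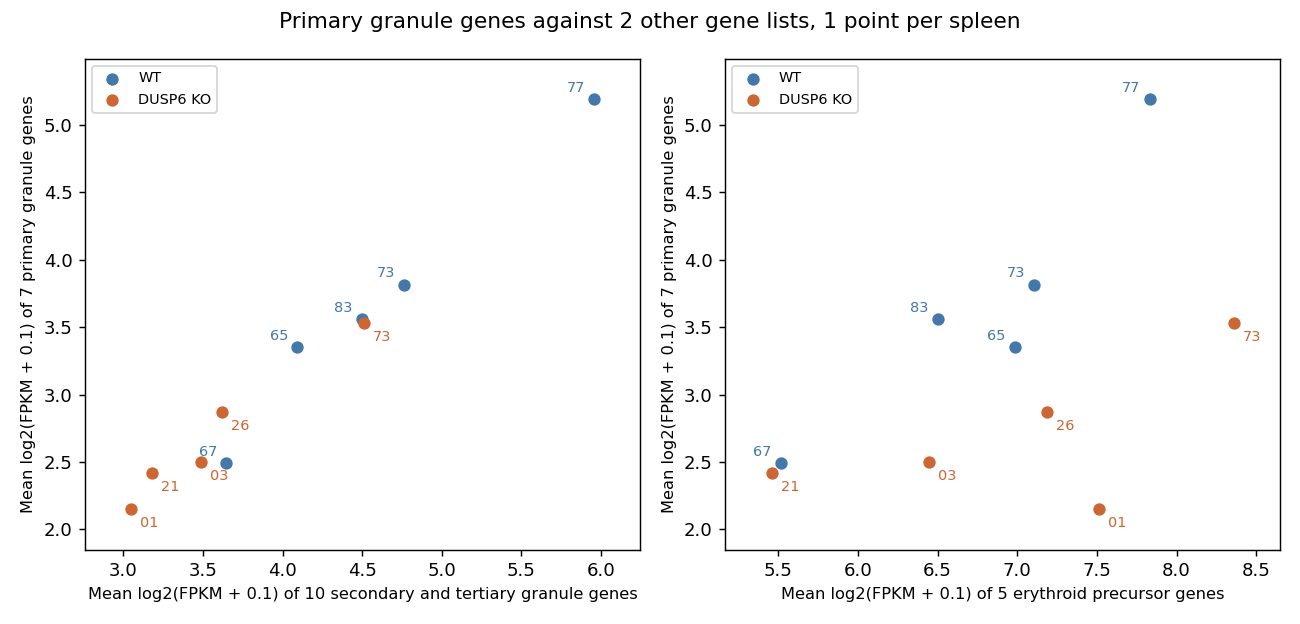
Mean log2(FPKM + 0.1) of the 7 primary granule genes (vertical) against that of 10 secondary and tertiary granule genes (left) and 5 erythroid precursor genes (right), 1 point per spleen with its number. On the left all spleens follow 1 line (r = 0.99), and on the right each of the 5 DUSP6 KO spleens lies below the WT spleen nearest to it in erythroid level, DUSP6 KO 21 by the least.

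Other components and partners of the primary granule had smaller fold changes than most of the 7 genes. Of 10 listed companions, 9 were tested and Bpi was below the minimum level. The median log2 fold change of the 9 was -0.15 (-0.10 without DUSP6 KO 01), and 8 of 9 were negative. Of the 9, 2 were lower at unadjusted p under 0.05, namely Srgn and Serpinb1a, against 3.03% of all tested genes, with 0 after adjustment. Lyz2, the companion of highest level, went the other way (log2 fold change 0.16). It averaged 1313 ± 120 FPKM in WT against 1476 ± 233 FPKM in knockout spleens (SD, n = 5 each). Slpi had a log2 fold change of -0.04. Srgn, which encodes the proteoglycan serglycin that packs granule proteases, averaged 115 ± 11.3 FPKM in WT against 95.1 ± 14.8 FPKM in knockout spleens (SD, n = 5 each; log2 fold change -0.28). Serpinb1a, an inhibitor of elastase, cathepsin G and proteinase 3, averaged 51.9 ± 2.30 against 42.9 ± 7.04 FPKM (log2 fold change -0.29). Ctsc, which encodes the peptidase that activates the granule proteases, stood at 48.8 ± 4.07 against 44.2 ± 4.72 FPKM (SD, n = 5 each; log2 fold change -0.15, adjusted p = 0.953 by limma). Most of these genes are also expressed in macrophages and lymphocytes of the spleen, and which cells their reads came from was not tested. Prss57, which encodes the granule protease NSP4 and lies 83.5 kb from Prtn3, is the companion most restricted to neutrophil precursors. It ranged from 0.325 to 0.936 FPKM in knockout and from 0.368 to 2.64 FPKM in WT spleens (log2 fold change -0.62, adjusted p = 0.966 by limma), with WT 77 highest and WT 67 lowest of the WT spleens.

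Of 6 genes expressed beside the primary granule genes in granulocyte progenitors, 2 were lower at unadjusted p under 0.05, Cst7 and Clec5a. At that threshold 3.03% of all tested genes were lower. None of the 6 (0) passed after adjustment, and their median was -0.37. Cst7 did not follow the 7 genes, with 7.54 FPKM in DUSP6 KO 73, their highest DUSP6 KO spleen, and 14.9 FPKM in DUSP6 KO 03. Whether these genes were read from progenitors or from other spleen cells was not tested. Fcnb spanned 3.45 to 12.2 FPKM in knockout spleens and 4.38 to 34.4 FPKM in WT spleens (log2 fold change -1.01, adjusted p = 0.942 by limma). Of 12 regulators of granulocyte formation, Csf3 was below the minimum level, and 0 of the other 11 had an unadjusted p under 0.05 by limma, with a median of -0.07. That median stayed between -0.14 and 0.02 with 1 spleen left out, and it was above 0 without DUSP6 KO 01. Cebpa, needed for the step from common progenitors to granulocyte progenitors, averaged 18.1 ± 1.73 FPKM in WT against 18.9 ± 3.33 FPKM in knockout spleens (SD, n = 5 each; log2 fold change 0.05, 95% CI -0.22 to 0.32). Spi1, which encodes PU.1, averaged 55.3 ± 8.28 against 53.4 ± 8.67 FPKM (log2 fold change -0.05, 95% CI -0.35 to 0.25). Csf3r, the receptor for G-CSF, averaged 21.3 ± 3.43 against 21.9 ± 15.1 FPKM (log2 fold change -0.15, 95% CI -0.87 to 0.58). That knockout mean held DUSP6 KO 21 at 48.5 FPKM. The medians of Csf3r were 22.4 FPKM in WT and 14.8 FPKM in knockout spleens, and 3 of 5 DUSP6 KO spleens lay below every WT spleen. These factors are used in many cells of the spleen beside neutrophil precursors, and the source of their reads was not tested.

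**Figure D4:**
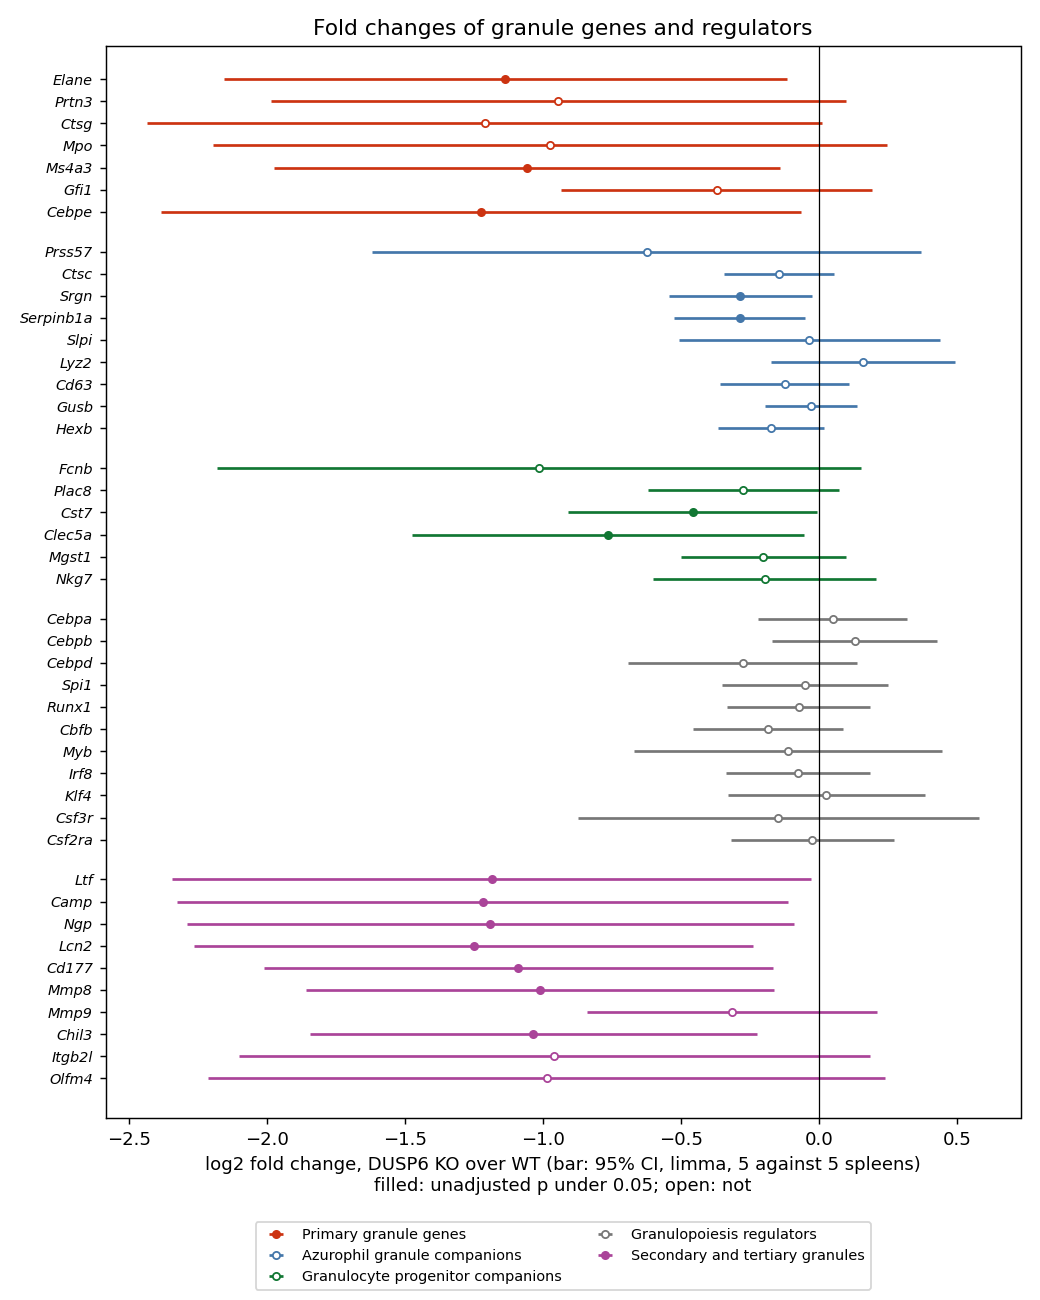
log2 fold changes of DUSP6 KO over WT with 95% confidence intervals from limma (5 against 5 spleens) for the primary granule genes, their companions, granulocyte progenitor genes, regulators, and secondary and tertiary granule genes. Filled points have an unadjusted p under 0.05 (3 of 7 primary granule genes, 0 of 11 regulators), and the intervals of most granule genes are wider than those of the regulators.

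Relatives of the members by gene family were also examined. Of the 11 tested, Mcpt8 was lower in DUSP6 KO and Mcpt4 higher at unadjusted p under 0.05. Mcpt8, a basophil protease gene 14.6 kb from Ctsg, ranged from 1.34 to 2.17 FPKM in DUSP6 KO and from 2.29 to 12.7 FPKM in WT, with no overlap (log2 fold change -1.67, adjusted p = 0.311 by limma). Mcpt4, a mast cell protease gene 37.6 kb from Ctsg, ranged from 2.28 to 6.41 FPKM in the DUSP6 KO and from 0.353 to 1.25 FPKM in the WT spleens (log2 fold change 2.40, adjusted p = 0.0615 by limma). The authors, with another method on read counts, list Mcpt4 as higher in DUSP6 KO after adjustment. Epx, which encodes the eosinophil peroxidase and lies 59.6 kb from Mpo, averaged 1.90 ± 0.92 FPKM in WT and 1.07 ± 0.71 FPKM in the knockout (SD, n = 5 each; log2 fold change -0.90, adjusted p = 0.944 by limma). Within 250 kb of Elane, 33 other genes were tested, and 0 were lower and 2 higher at unadjusted p under 0.05 by limma, with a median log2 fold change of -0.01. Around Gfi1, 0 of 16 neighbours had an unadjusted p under 0.05 in either direction. Around Ms4a3, 4 of 19 were lower, against 3.03% of all tested genes. These 4 were the family members Ms4a6d, Ms4a4c, Ms4a4a and Ms4a2, named here after their values were seen.

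Markers of other blood lineages varied between the spleens too. The mean log2 level of 5 erythroid precursor genes (Klf1, Epor, Tfrc, Slc4a1 and Alas2) ranged from 5.46 to 8.36 in DUSP6 KO and from 5.52 to 7.83 in WT. All 5 were detected in every spleen. None of the 5 (0) differed at unadjusted p under 0.05 by limma. Over the 10 spleens this level had r = 0.53 with that of the 7 primary granule genes, and 0.73 after the mean of each genotype was subtracted. With the erythroid level as a covariate, chosen after the data were seen, 6 of 7 primary granule genes were lower in DUSP6 KO at unadjusted p under 0.05 by limma, against 4.31% of all tested genes. Again 0 of 7 passed after adjustment, against 0.0751% of all tested genes. In that fit Elane had a log2 fold change of -1.27 (SE 0.32, adjusted p = 0.25 by limma) and Gfi1 one of -0.38 (SE 0.26, adjusted p = 0.754 by limma). The mean of the 7 genes minus that of the erythroid genes was -4.30 ± 0.88 in DUSP6 KO and -3.11 ± 0.37 in WT (log2 scale, SD, n = 5 each). For 6 proliferation genes, which include Mki67 and Top2a, the median was 0.23 on the log2 scale with 0 of 6 at unadjusted p under 0.05 by limma, and their mean level had r = 0.53 with that of the 7 genes over 10 spleens. That median was -0.09 without DUSP6 KO 73, -0.09 without WT 67, 0.09 without DUSP6 KO 01, 0.36 without DUSP6 KO 03, 0.46 without WT 77 and 0.53 without DUSP6 KO 21, so its sign rested on single spleens. With the proliferation level as the covariate, 6 of 7 primary granule genes were lower at that threshold, against 4.38% of all tested genes. The part of erythroid and dividing cells in the result was not tested further.

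The median of the stem and progenitor markers was -0.20 on the log2 scale, with 0 of 6 at unadjusted p under 0.05 by limma. Kit, the stem cell factor receptor, averaged 5.92 ± 0.39 FPKM in WT against 5.63 ± 0.48 FPKM in knockout spleens (SD, n = 5 each). The 5 megakaryocyte genes had a median of -0.39, and Pf4 and Itga2b were lower at unadjusted p under 0.05. Without WT 77 that median was -0.23. Of the 6 monocyte genes 3 were lower (Ly6c2, Ccr2 and F13a1) and 2 higher (Cx3cr1 and Ace) at that threshold. Of 5 eosinophil genes only Il5ra was lower. Of the 8 basophil and mast cell genes, Mcpt8, Prss34 and Ms4a2 were lower and Tpsb2 higher. None of these (0) passed after adjustment over all genes by limma. Of all 21296 tested genes, 646 were lower and 559 higher at unadjusted p under 0.05. The authors, who tested read counts with another method, list Prss34 as lower in DUSP6 KO after adjustment. They also report enrichment of neutrophil-related terms among the genes lower in DUSP6 KO. By flow cytometry of male spleen cells they found no significant difference in numbers of myeloid CD11b+Gr1+ cells. Ccr2, Cx3cr1 and Tpsb2 are named after their values were seen.

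No single spleen turned the direction of any of the 7 genes, but the size and the number of calls rested on a few. Without WT 77, the log2 fold change was -0.73 for Elane, -0.53 for Mpo, -0.54 for Prtn3, -0.76 for Ctsg, -0.69 for Ms4a3 and -0.82 for Cebpe. Without WT 67 the same genes stood at -1.48, -1.44, -1.25, -1.60, -1.28 and -1.56. For Gfi1 the value ran from -0.52 without DUSP6 KO 26 to -0.20 without DUSP6 KO 01. The count of genes lower at unadjusted p under 0.05 was 3 of 7 with all spleens. It was 0 without DUSP6 KO 21, 01 or 03, where 4.4%, 2.29% and 2.88% of all tested genes were lower at that threshold. It was 1 without WT 73 or WT 77 (2.44% and 3.39% of all tested genes) and 2 without WT 83 (2.41%). It was 3 without DUSP6 KO 26 or WT 65 (2.9% and 3.18%), 5 without DUSP6 KO 73 (2.98%) and 6 without WT 67 (2.63%). Without both WT 77 and DUSP6 KO 73, left out together after the data were seen, it was 5 against 3.02% of all tested genes. With limma array weights it was 6 against 4.34%. The median of the 7 fold changes was -0.69 without WT 77. After adjustment over all genes by limma the count was 0 in each of these fits.

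**Figure D5:**
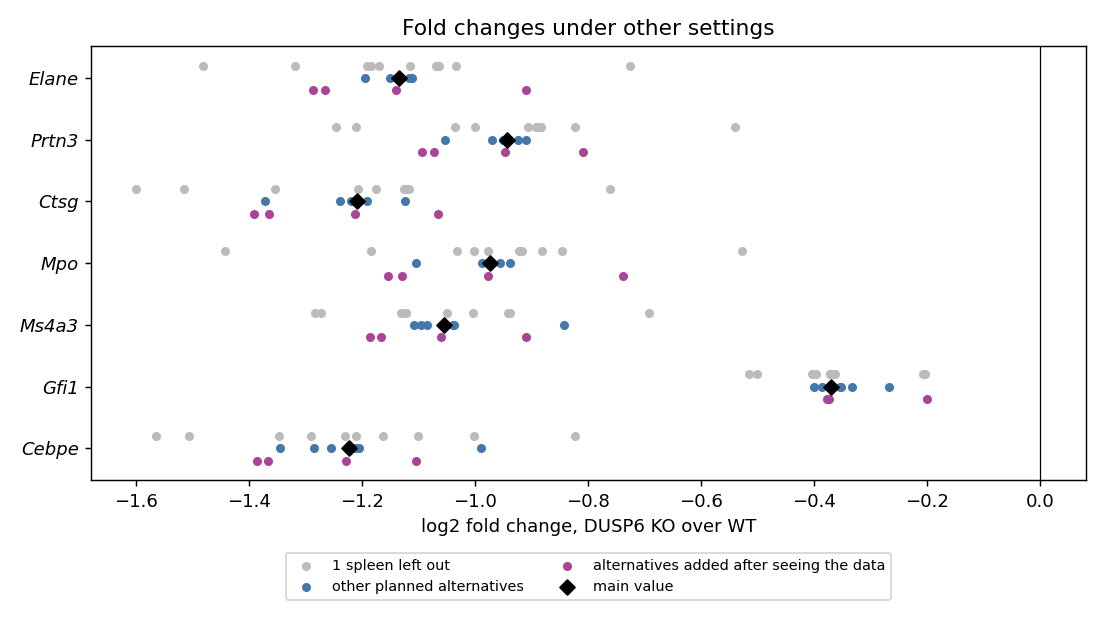
log2 fold change of DUSP6 KO over WT for each of the 7 genes with all 10 spleens (diamond), with 1 spleen left out (grey), under the other planned settings (blue) and under settings added after the data were seen (purple). All values lie below 0, from -1.60 (Ctsg without WT 67) to -0.20 (Gfi1).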

How the data were processed

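RNA was extracted from whole spleens of 5 DUSP6 KO and 5 WT mice, 1 library per mouse, and sequenced as paired-end poly(A) libraries. The authors used HISAT2 for alignment and featureCounts 1.5.0-p3 for counting (version from the submitters' processing notes), and deposited FPKM values, 1 column per spleen. Those notes name hg38, but the deposited coordinates are mouse GRCm38: 98.3% of the gene identifiers shared with GENCODE M21 have the same coordinates. Whether counting used strand was not stated in the sources used here.

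FPKM times gene length fell on whole multiples of 1 step per library for 100% of values, which gave the reads of each gene. The tolerance was 0.01 reads and grew in proportion for high counts, so the very highest counts could not fail. The totals were 14990474 to 19822673 reads, and the FPKM denominators were 0.949 to 1.12 times these totals.

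Values were tested as log2(FPKM + 0.1) with limma 3.58.1 in R 4.3.3 (eBayes with trend, no covariate) over the 21296 genes that averaged 0.1 FPKM or more. P-values were adjusted over all of them by the Benjamini-Hochberg procedure, and 0.05 was the threshold. The pseudocount shrinks the fold changes of low genes. Single genes and ratios were also tested by exact two-sided permutation. The procedure was tested on simulated reads in which the genes varied independently of each other. That gives no measure of how it performs on genes that vary together, as most of the 7 did. The 7 genes and all gene lists were chosen with earlier results of these data known. All 7 genes, the 10 genes most like them, and from each other list the 2 of highest level and the 2 of lowest p were eligible to be named, with all companions, regulators and family relatives. Alternatives were other pseudocounts, filters, variance models, scalings, limma voom on the recovered reads, and leaving out each spleen. 1 listed gene is not reported here and entered no list. Protein sequences were not analysed here.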

Additional observations from a re-analysis of the deposited data

Results flagged for a closer look

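Within the groups of 5 spleens, 7 of 16 sets of FPKM values held a spleen whose gap to its nearest neighbour was past Dixon's critical value of 0.71 of the whole range. The sets were those of the 7 genes and of Dusp6 in each genotype. Chance gives such a gap in about 1 of 20 groups of normally distributed values. That rate cannot be applied here, because FPKM values need not be normal and the sets share the same spleens and are not independent. WT 77 was the far value in 5 of them, at 173 FPKM for Elane, 82.63 FPKM for Mpo, 96.72 FPKM for Prtn3, 13.44 FPKM for Ms4a3 and 17.88 FPKM for Cebpe. DUSP6 KO 73 was the far value in the other 2, at 34.56 FPKM for Prtn3 and 16.65 FPKM for Ctsg. On the log2 scale, where the tests were made, 2 of 22 sets passed, and these were Prtn3 and Ctsg in DUSP6 KO spleens. The log2 sets also held the mean levels of the 7 genes, the erythroid precursor genes and the proliferation genes. Without the highest spleen of each group (WT 77 and DUSP6 KO 73), a comparison chosen after the data were seen, 7 of 7 genes kept lower means in DUSP6 KO, and 5 of 7 had an unadjusted p under 0.05 by limma, against 3.02% of all tested genes lower in that fit, with 0 after adjustment.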

How the results depend on the processing

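Over 24 alternatives per gene (10 that left out 1 spleen, 10 other planned settings and 4 added after the data were seen), all 7 genes kept a negative log2 fold change, and 0 of 7 passed the adjusted threshold. The lowest adjusted p was 0.22, for Elane. The count of the 7 genes lower at unadjusted p under 0.05 was 3 with all spleens, against 3.03% of all tested genes. With 1 spleen left out it ran from 0 to 6, against 2.29% to 4.4% of all tested genes. The count was 6 with array weights (4.34% of all tested genes) and 6 with the erythroid level as a covariate (4.31%). It was 6 with the proliferation level as a covariate (4.38%) and 5 without the highest spleen of each group (3.02%). The counts over all tested genes at unadjusted p under 0.05, 646 lower and 559 higher, were 409 and 349 with a minimum mean of 1 FPKM, where fewer genes were tested, and 848 and 851 were higher with the erythroid and the proliferation covariate. After adjustment, 7 lower and 8 higher genes became 4 lower with a minimum mean of 1 FPKM, 13 higher with array weights, 16 lower and 14 higher with the erythroid covariate, and 16 lower and 16 higher with the proliferation covariate. The cause of these shifts was not tested. With 1 spleen left out these counts ran from 489 to 934 lower and from 486 to 643 higher at unadjusted p, and from 4 to 13 lower and from 6 to 21 higher after adjustment. The single-spleen ranges of the log2 fold change were -1.48 to -0.73 for Elane, -1.44 to -0.53 for Mpo, -1.25 to -0.54 for Prtn3, -1.60 to -0.76 for Ctsg, -1.28 to -0.69 for Ms4a3, -0.52 to -0.20 for Gfi1 and -1.56 to -0.82 for Cebpe. No paired analysis was possible because the groups share only 1 replicate number, and nothing ties the 2 spleens numbered 73 to each other.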
